A study of Sus scrofa with 37 samples.

Results

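The genes described here carry out mitosis and chromosome segregation. They were taken from a list of 52 gene symbols with roles in cell division, of which 42 had a row in the deposited table of 9418 genes, and 41 of these were among the 9411 genes that passed the filter on low counts. The gene that did not pass is CENPA, the centromeric variant of histone H3. The other 10 listed genes (CCNA2, BUB1B, AURKA, CENPM, SPC25, CDC20, MKI67, NUSAP1, PTTG1 and KNL1) were not analysed here. Transcripts were counted by RNA sequencing in the skeletal muscle of minipigs of the Bama breed, after contusion, which is a blunt mechanical injury. The 37 libraries form a control group of 9 and groups of 4 for each of 7 times after injury, at 4 h, at 8 h, then every 4 h to 24 h, and at 48 h. All were whole muscle tissue, and the labels give no genotype or drug. Mechanical damage stands as treatment in the labels of the controls too. How the control muscle was handled, which muscle it was and the age of the pigs are not stated there.

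A cell that divides first copies its DNA and then enters mitosis when cyclin B activates the kinase CDK1. The chromosomes are condensed, attached by their kinetochores to the microtubules of the spindle, held by a checkpoint until all are attached, and pulled apart before a contractile ring cuts the cell. Many of the genes for these steps are transcribed together late in the cell cycle by MYBL2 and FOXM1, so their transcripts are low in tissue whose cells do not divide. Muscle fibres do not divide, and in injured muscle the dividing cells are satellite cells, which are the stem cells of muscle, and cells of the connective tissue, the vessels and the immune system. In whole tissue, more dividing cells and more transcript per cell cannot be told apart.

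Column totals of the count table were 9.86 to 22.9 M counts, and a floor of 3 counts lay at 0.108 to 0.378 CPM (the count scaled to a common library size), counting error only. The 42 genes had between 0 and 1540 counts in a library. The group's median was at most 3 counts for 4 of the 42 genes in the controls, 12 at 8 h and none at 24 or 48 h. The 37 libraries came from 8 minipigs, with no label that ties a library to an animal, so p-values measure only the spread between libraries. Over 9156 genes that are in none of the lists used here, 48 h replicates 2 and 4 lay as near to the mean of the controls as the controls did to each other: their root mean square log2 distances were 0.475 and 0.354, against 0.388 to 0.6 for the controls, 1.04 and 0.863 for 48 h replicates 1 and 3, and at least 0.641 for all other injured libraries. Results at 48 h are therefore given per library, and the counts of calls also without these 2 libraries. Marker genes of muscle fibres, the labelled tissue, were present, with 9 of 14 measured and a summed level of 61900 to 113000 CPM in the controls.

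Of the 41 genes tested, 38 rose at 48 h against control and none fell (edgeR quasi-likelihood test, Benjamini-Hochberg adjusted over all genes tested, threshold 0.05), where 20.3% of all genes were called, 12.8% higher and 7.45% lower. Their median log2 change was 2.60, against -0.02 for all genes. Every row of the table reaches a minimum count in some library, given with the processing below. Some members reach it only at 48 h. CCNB1 had 577 counts in 48 h replicate 1 and at most 40 outside 48 h, and KIF20A 635 and 45. If rows were selected by this minimum, such genes would be absent had they not been high at 48 h. The 38 of 41 may thus partly reflect selection, to an extent not tested. At 24 h, 20 rose and none fell, with a median log2 change of 1.08, where 53.9% of all genes were called, 26.8% higher and 27.1% lower. No member was called at 4 h, where 18.3% of all genes were (9.22% higher and 9.06% lower), and none at 12 h, where 31.0% were (16.3% higher and 14.7% lower). Unadjusted p-values were under 0.05 for 2 members at 4 h and 6 at 12 h, DESeq2 called 1 and 3, and limma-voom called none at either time. At 8 h, 1 rose and 8 fell (54.0% of all genes called, 25.8% higher and 28.2% lower), at 16 h 4 rose and 1 fell (53.1%, 25.3% and 27.8%), and at 20 h 4 rose and 3 fell (51.5%, 25.4% and 26.2%). The share called lower at 8 h, 19.5% of the members, was thus below that of all genes. Their median log2 change at 8 h was -0.8 against -0.07 for all genes, and 7 of the 41 changes were positive. The medians at 16 and 20 h were -0.27 and -0.28, against -0.04 for all genes at both times. All 7 comparisons share the 9 controls. Over the 7 times together, 40 of the 41 genes were called, against 83.2% of all genes, and the exception was CENPK (adjusted p = 0.0543, edgeR).

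**Figure D1:**
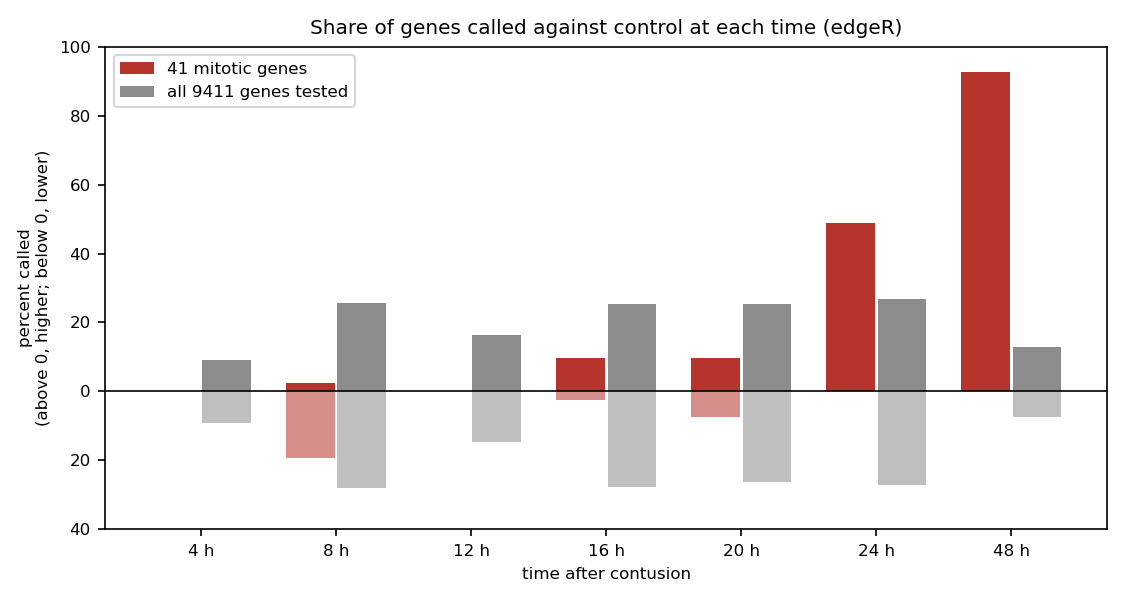
Share of genes called against control at each time, in percent, for the 41 mitotic genes tested (red) and all 9411 genes tested (grey), with higher calls drawn above 0 and lower calls, paler, below. The red bars for higher calls are taller than the grey at 24 h (20 of 41) and 48 h (38 of 41) and shorter at the 5 earlier times.

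The number of calls depended on single libraries. Without 48 h replicate 1, 19 of the 38 calls at 48 h remained, and without 48 h replicate 3, 33 remained. Without replicates 2 and 4, all 38 remained and 40 of 42 genes were called, with a median log2 change of 3.43. In that fit 3448 of all genes were called, against 1906 with all libraries. Replicates 2 and 4 were below replicates 1 and 3 for all 42 genes. Leaving them out thus raises the changes and does not test whether the calls hold. At 24 h, 12 of the 20 calls remained without 24 h replicate 3, the library in which 34 of the 42 genes had their highest 24 h value. The genes that lost their call there were TOP2A, KIF11, KIF4A, KIF15, ECT2, SMC2, MAD2L1 and FOXM1, and TOP2A, KIF15 and FOXM1 also lost it without 24 h replicate 1. With a term for 5 sets of libraries that differ in column totals and in C1QBP, NDUFAF8 and ND6, 33 genes were called at 48 h and 13 at 24 h. All 4 libraries at 48 h fell in the same set as 3 of the controls.

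Summed over the 42 genes, the controls lay between 106 and 182 CPM, and the libraries of 4 to 20 h between 91.0 and 172 CPM. The 4 libraries at 24 h were at 234, 202, 338 and 206 CPM, all above the controls. Those at 48 h were at 1130, 135, 600 and 118 CPM, so replicates 1 and 3 were the 2 highest of all libraries while replicates 2 and 4 stood within the control range.

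**Figure D2:**
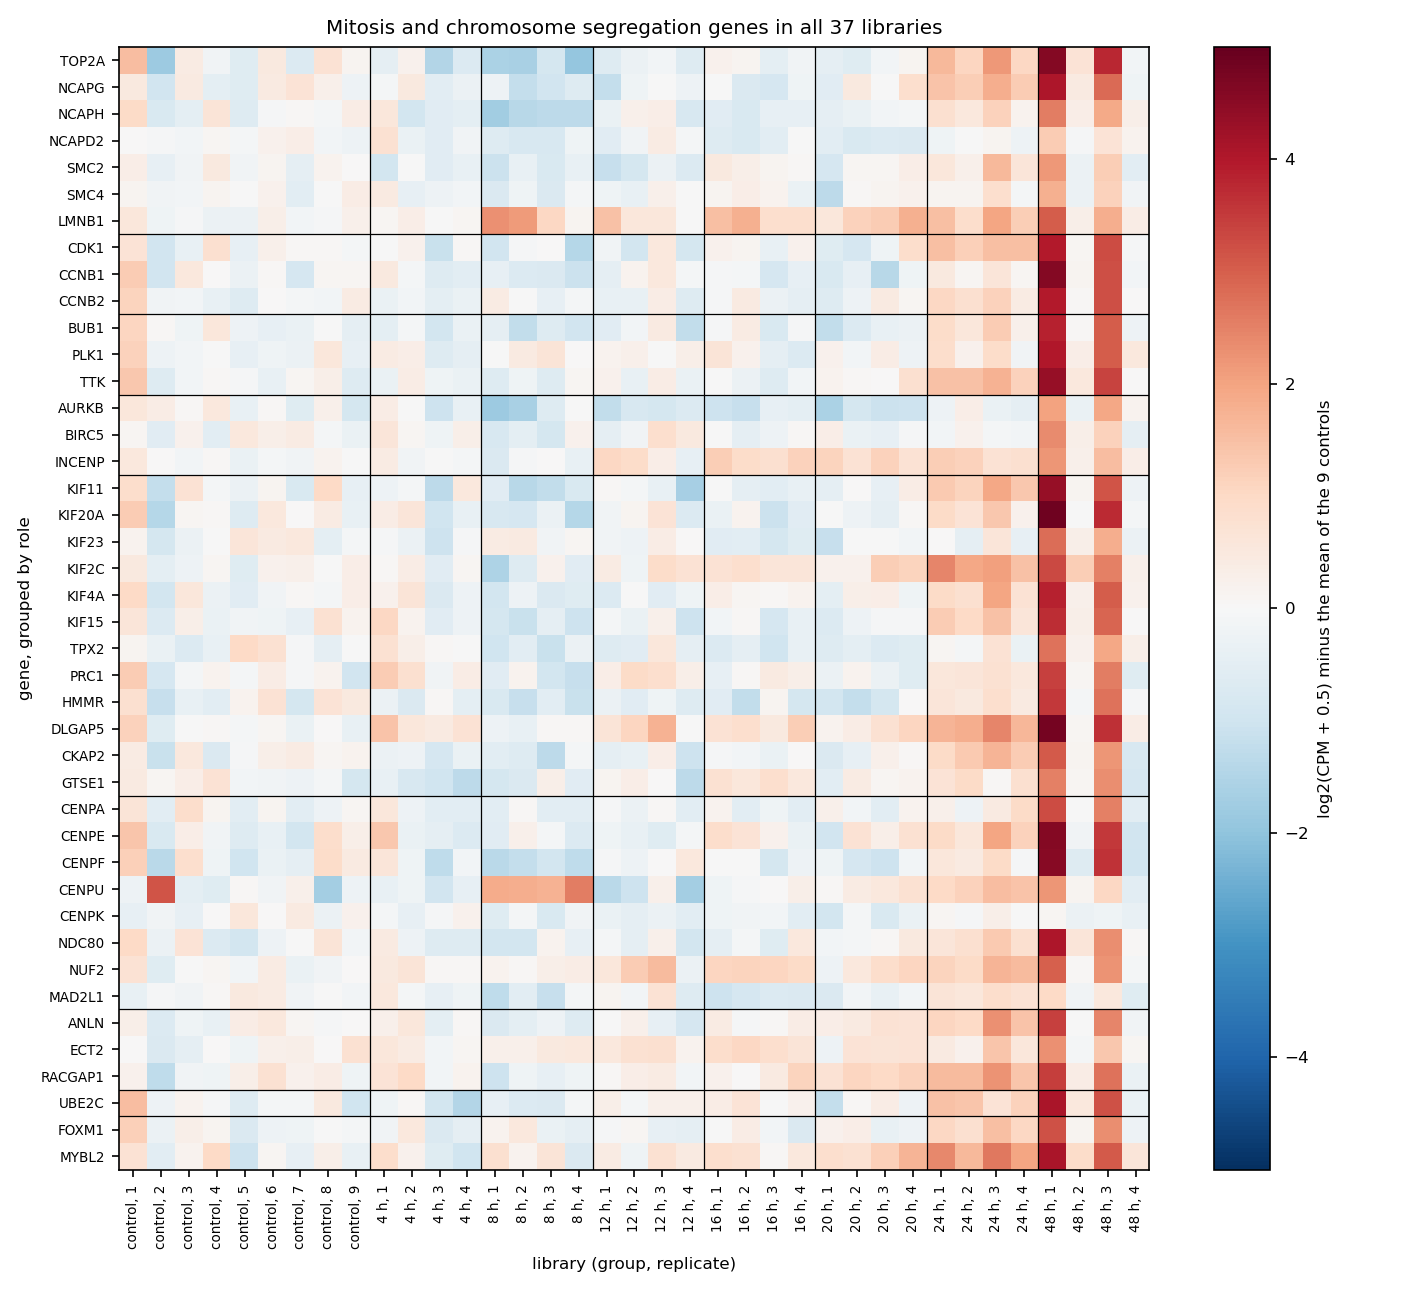
log2(CPM + 0.5) of each of the 42 genes (rows, grouped by role) in each of the 37 libraries (columns, by group and replicate), minus the mean of the 9 controls. Red is higher and blue is lower than the controls. The columns of 48 h replicates 1 and 3 are red in nearly every row, those of 48 h replicates 2 and 4 resemble the controls, and the 24 h columns are paler red in part of the rows.

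The cyclins and their kinase all rose at 48 h, by log2 changes of 3.21 to 3.75, and only the kinase gene rose at 24 h. CCNB1 encodes cyclin B1, whose build-up starts mitosis, and lies on chromosome 16 at 47338239 to 47348385 (pig genome Sscrofa11.1, RefSeq gene spans, also below). It was at 35.4, 1.15, 13.4 and 0.869 CPM in 48 h replicates 1 to 4, at 1.59, 1.10, 1.79 and 1.12 CPM at 24 h, and at 0.274 to 3.14 CPM (median 1.07) in the controls. Its 24 h libraries lay inside the control range, and its change was 3.43 ± 0.56 (log2 ± SE, adjusted p = 7.83e-05) at 48 h against 0.23 ± 0.62 (adjusted p = 0.779) at 24 h. CDK1, the kinase that drives entry into mitosis (chromosome 14, 64233945 to 64255290), was at 20.4, 0.938, 12.2 and 0.773 CPM at 48 h, 3.26, 2.53, 3.22 and 3.28 CPM at 24 h and 0.183 to 1.84 CPM (median 0.870) in the controls. All 4 of its 24 h libraries exceeded every control, and it was higher by 1.72 ± 0.62 at 24 h (adjusted p = 0.0188) and by 3.21 ± 0.60 at 48 h (adjusted p = 0.000369). CCNB2, a second cyclin B (chromosome 1, 112907047 to 112942218), was at 11.5, 0.313, 6.79 and 0.290 CPM at 48 h, 1.09, 0.843, 1.22 and 0.540 CPM at 24 h, and 0 to 1.18 CPM (median 0.217) in the controls, with a log2 change of 3.75 ± 0.67 at 48 h (adjusted p = 0.000204).

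Each of the 3 kinases of mitosis and its checkpoint measured here rose at 48 h. TTK, the checkpoint kinase also called MPS1, was at 15.3, 0.625, 7.56 and 0.290 CPM at 48 h and 1.66, 1.61, 2.07 and 1.22 CPM at 24 h. Its controls ran from 0 to 1.49 CPM (median 0.246), and the change was 4.02 ± 0.69 at 48 h (adjusted p = 0.00013) and 2.15 ± 0.72 at 24 h (adjusted p = 0.0122). BUB1, a kinase that holds the checkpoint at kinetochores, stood at 16.7, 0.729, 9.03 and 0.483 CPM at 48 h against 0.362 to 1.96 CPM (median 0.524) in the controls, a change of 3.13 ± 0.61 (adjusted p = 0.00052). PLK1, the polo-like kinase (chromosome 3, 22537814 to 22550901), was at 17.7, 0.938, 8.80 and 1.16 CPM at 48 h, 1.59, 0.807, 1.64 and 0.504 CPM at 24 h, and 0.362 to 2.04 CPM (median 0.488) in the controls. At 24 h, BUB1 (0.99 ± 0.65, adjusted p = 0.198) and PLK1 (0.58 ± 0.58, adjusted p = 0.417) did not pass the test, and their libraries overlapped the controls. PLK1 was 3.28 ± 0.53 higher at 48 h (adjusted p = 6.46e-05).

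The chromosomal passenger complex corrects faulty attachments of chromosomes, and its 3 measured genes followed different courses. INCENP, its scaffold (chromosome 2, 9411942 to 9445825), was at 5.61 to 7.89 CPM at 16 h, 5.36 to 7.34 CPM at 20 h and 5.36 to 7.89 CPM at 24 h, against 2.34 to 4.56 CPM in the controls. None of these 12 libraries overlapped the controls. At 48 h it was at 15.8, 3.75, 9.96 and 3.96 CPM, and the log2 changes were 1.13 ± 0.27 at 16 h (adjusted p = 0.00102), 1.03 ± 0.28 at 20 h (adjusted p = 0.00254), 1.08 ± 0.27 at 24 h (adjusted p = 0.00137) and 1.44 ± 0.27 at 48 h (adjusted p = 0.000423). AURKB, the kinase of the complex (chromosome 12, 53410833 to 53426165), was lower first and higher later. It was at 0.0904, 0.174, 0.840 and 1.54 CPM at 8 h and 0.186, 0.621, 0.489 and 0.516 CPM at 20 h, where the controls ran from 0.634 to 2.59 CPM (median 1.68), and then at 7.97, 1.15, 7.33 and 1.83 CPM at 48 h. It fell by 1.38 ± 0.56 at 8 h (adjusted p = 0.0376) and by 1.85 ± 0.57 at 20 h (adjusted p = 0.00742), and rose by 1.44 ± 0.45 at 48 h (adjusted p = 0.0219). BIRC5, or survivin, was at 20.7, 4.58, 8.72 and 2.51 CPM at 48 h, against 2.28 to 5.41 CPM (median 3.93) in the controls, and rose by 1.29 ± 0.33 (adjusted p = 0.00641). The 48 h calls of AURKB and BIRC5 were lost without 48 h replicate 1 and with the library sets in the fit, and that of AURKB also without 48 h replicate 3. The 8 h call of AURKB was lost without any 1 of control replicates 1, 2 and 4 and 8 h replicates 1, 2 and 3.

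Kinetochore and centromere genes had log2 changes from -0.23 to 3.60 at 48 h. Of 7 tested, 4 rose at 48 h (CENPE, CENPF, NDC80 and NUF2), 2 rose at 24 h (NUF2 and MAD2L1), and CENPU and CENPK were called at neither time. CENPF, an outer kinetochore protein (chromosome 9, 128948386 to 129012241), was at 40.8, 0.625, 21.2 and 0.386 CPM at 48 h, 2.10, 1.87, 2.86 and 1.19 CPM at 24 h and 0.183 to 3.46 CPM (median 1.02) in the controls, a rise of 3.33 ± 0.63 at 48 h (adjusted p = 0.000452). NDC80, which binds the kinetochore to microtubules, was at 15.2, 0.938, 4.24 and 0.483 CPM at 48 h against 0 to 1.41 CPM (median 0.362) in the controls and rose by 3.22 ± 0.66 (adjusted p = 0.000862). CENPE, a kinesin that carries chromosomes to the middle of the spindle, was at 27.5, 0.521, 12.9 and 0.0966 CPM against 0.110 to 2.51 CPM (median 0.512), a rise of 3.60 ± 0.71 (adjusted p = 0.000652). For these 3 genes the split between replicates 1 and 3 and replicates 2 and 4 was the same. CENPA had this pattern too, at 6.44, 0.208, 3.63 and 0 CPM at 48 h and at most 0.838 CPM in the controls. It was not in the test, and in a fit without the filter it was higher by 3.19 (adjusted p = 0.0065, edgeR).

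NUF2, the partner of NDC80, differed in rising earlier. It was at 4.26, 4.44, 4.36 and 3.99 CPM at 16 h and 4.41, 3.92, 6.86 and 6.34 CPM at 24 h, where the highest control was 3.30 CPM, and it rose by 1.18 ± 0.41 at 16 h (adjusted p = 0.0152), 1.51 ± 0.40 at 24 h (adjusted p = 0.00197) and 2.07 ± 0.39 at 48 h (adjusted p = 0.000453). MAD2L1, which encodes the checkpoint protein MAD2, was at 3.05 to 4.09 CPM at 16 h, 10.2 to 12.8 CPM at 24 h and 14.0, 6.04, 10.0 and 4.35 CPM at 48 h, against 5.19 to 9.72 CPM in the controls. It thus stood below every control at 16 h and above every control at 24 h. It fell by 0.78 ± 0.28 at 8 h (adjusted p = 0.0173) and by 0.92 ± 0.27 at 16 h (adjusted p = 0.00587), rose by 0.72 ± 0.25 at 24 h (adjusted p = 0.016), and was not called at 48 h (0.32 ± 0.26, adjusted p = 0.396). Scaling by column totals and the library sets each removed its 16 h call, its 8 h call was lost without 8 h replicate 1 or 3, and its 24 h call without 24 h replicate 3. The NUF2, CENPE and NDC80 calls at 48 h were lost without 48 h replicate 1.

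The inner kinetochore genes CENPK and CENPU were the ones called at neither 24 nor 48 h. CENPK lay inside the control range in all libraries of both times, at 6.74, 5.00, 5.33 and 4.73 CPM at 48 h and 5.94 to 7.72 CPM at 24 h, against 4.56 to 9.60 CPM in the controls. Its one call was at 20 h, where it was at 3.08, 5.75, 3.42 and 4.84 CPM and fell by 0.58 ± 0.20 (adjusted p = 0.0169), a call lost when 20 h replicate 1 or 3 was left out or counts were scaled by column totals. CENPU was at 6.78, 6.60, 6.21 and 11.3 CPM at 8 h, above 8 of the 9 controls, which ran from 0.109 CPM to 17.1 CPM in control replicate 2 with a median of 1.18 CPM. Its change at 8 h was 1.39 ± 0.63 (adjusted p = 0.0595). The CENPU span on chromosome 15 (45818562 to 45851461) overlaps that of PRIMPOL, and 19 of the 42 genes overlap another gene in this way. These are overlaps of whole gene spans, and overlap of exons was not examined. How the counting treated strand is not stated, so whether reads of such pairs were kept apart is not known.

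All 12 kinesin and spindle genes tested rose at 48 h, by 1.65 to 3.81 on the log2 scale, and 6 of them rose at 24 h (KIF11, KIF2C, KIF4A, KIF15, DLGAP5 and CKAP2). KIF20A, a kinesin of the central spindle (chromosome 2, 140202316 to 140213144), was at 38.9, 0.833, 17.2 and 0.773 CPM at 48 h, 2.10, 1.65, 2.93 and 1.08 CPM at 24 h and 0 to 2.75 CPM (median 0.922) in the controls, a rise of 3.80 ± 0.65 at 48 h (adjusted p = 0.000135). KIF2C, which takes microtubules apart at their ends (chromosome 6, 166556765 to 166577904), moved earlier. It was at 8.76, 5.98, 6.58 and 4.18 CPM at 24 h and 16.2, 3.54, 9.42 and 1.55 CPM at 48 h, against 0.615 to 1.89 CPM (median 1.33) in the controls. It was the only one of the 42 genes for which 48 h replicate 2 exceeded every control, and it rose by 2.31 ± 0.41 at 24 h (adjusted p = 2.44e-05) and 2.60 ± 0.41 at 48 h (adjusted p = 4.67e-05). All 4 of its 16 h libraries also lay above the controls, without a call.

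KIF15, a kinesin that helps to keep the spindle poles apart, was at 0.181, 0.0868, 0.420 and 0.110 CPM at 8 h, 2.53, 1.98, 3.00 and 1.40 CPM at 24 h and 15.6, 1.04, 8.95 and 0.773 CPM at 48 h, against 0.274 to 1.63 CPM (median 0.615) in the controls. It fell by 1.97 ± 0.78 at 8 h (adjusted p = 0.033) and rose by 1.40 ± 0.54 at 24 h (adjusted p = 0.0291) and 2.99 ± 0.52 at 48 h (adjusted p = 0.000161). Its 8 h libraries held 2, 1, 5 and 1 counts, near the floor of 3 counts. Its 8 h call was lost without any 1 of control replicates 1 and 8 and 8 h replicates 1, 2 and 4. DLGAP5, which stabilises the microtubules that reach the kinetochores, was at 4.20, 4.58, 7.36 and 4.03 CPM at 24 h and 39.2, 1.04, 17.8 and 1.35 CPM at 48 h, against 0.456 to 2.75 CPM (median 0.942) in the controls. All of its 24 h libraries exceeded the controls, and it rose by 2.24 ± 0.53 at 24 h (adjusted p = 0.000724) and 3.81 ± 0.52 at 48 h (adjusted p = 9.31e-06).

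The motor KIF11, which pushes the spindle poles apart, was at 4.41, 3.78, 6.93 and 4.54 CPM at 24 h and 39.3, 1.67, 17.1 and 1.16 CPM at 48 h, against 0.365 to 3.48 CPM (median 1.33) in the controls, and rose by 1.50 ± 0.57 at 24 h (adjusted p = 0.0262). The chromosome-bound kinesin KIF4A was at 1.66, 1.43, 3.86 and 1.33 CPM at 24 h and 15.3, 0.833, 8.49 and 0.773 CPM at 48 h, against 0.0913 to 1.73 CPM (median 0.543) in the controls, and rose by 1.52 ± 0.57 at 24 h (adjusted p = 0.0238). For KIF11 all 4 libraries at 24 h lay above the controls, and for KIF4A 1 of 4 did. CKAP2, a spindle protein, was at 4.70, 6.16, 8.36 and 6.01 CPM at 24 h and 22.1, 2.50, 12.0 and 1.06 CPM at 48 h, against 0.730 to 3.35 CPM in the controls, and rose by 1.42 ± 0.43 at 24 h (adjusted p = 0.00623).

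The other 5 genes of this group were called at 48 h and not at 24 h. KIF23, the motor of centralspindlin, was at 31.5, 5.21, 16.0 and 3.28 CPM at 48 h against 2.01 to 6.64 CPM in the controls (1.68 ± 0.36, adjusted p = 0.00116), and TPX2, which starts microtubules around the chromosomes, was at 45.2, 7.71, 26.5 and 8.11 CPM against 3.87 to 13.4 CPM (1.65 ± 0.33, adjusted p = 0.000801). PRC1, which bundles the central spindle, was at 24.6, 1.98, 13.4 and 1.06 CPM against 0.724 to 5.19 CPM (2.29 ± 0.47, adjusted p = 0.000912). For all 3, replicates 1 and 3 exceeded every control and replicates 2 and 4 did not. HMMR, a spindle and hyaluronan-binding protein, rose by 2.65 ± 0.57 (adjusted p = 0.00148), and GTSE1, which binds microtubules, was at 6.68, 0.833, 5.71 and 0.193 CPM against 0.181 to 1.54 CPM and rose by 2.08 ± 0.55 (adjusted p = 0.00742). Without 48 h replicate 1 the calls of KIF23, TPX2, PRC1, HMMR, CKAP2 and GTSE1 were lost.

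Genes of chromosome structure all rose at 48 h (7 of 7, by 0.63 to 3.23 on the log2 scale), and 4 rose at 24 h. TOP2A, the topoisomerase that untangles sister chromatids (chromosome 12, 22001300 to 22028452), was at 94.4, 5.94, 53.9 and 3.09 CPM at 48 h, 11.7, 7.77, 17.4 and 7.60 CPM at 24 h, and 0.639 to 11.2 CPM (median 3.89) in the controls. It fell by 2.14 ± 0.69 at 8 h (adjusted p = 0.00948), when its libraries were at 0.813, 0.781, 1.68 and 0.552 CPM, and rose by 1.35 ± 0.53 at 24 h (adjusted p = 0.0297) and 3.19 ± 0.52 at 48 h (adjusted p = 6.55e-05). It was the only gene called at 8, 24 and 48 h and between 24 and 48 h. The condensin subunit NCAPG was at 2.53, 2.20, 3.57 and 2.23 CPM at 24 h and 18.2, 1.04, 7.56 and 0.483 CPM at 48 h, against 0.0913 to 1.32 CPM (median 0.870) in the controls, and rose by 1.84 ± 0.61 at 24 h (adjusted p = 0.012) and 3.23 ± 0.60 at 48 h (adjusted p = 0.000327). NCAPH, of the same complex, was at 0.361, 0.608, 0.672 and 0.662 CPM at 8 h, below every control (1.19 to 5.11 CPM, median 2.25), and at 16.4, 3.13, 10.3 and 2.99 CPM at 48 h. It fell by 2.16 ± 0.49 at 8 h (adjusted p = 0.000419), rose by 1.66 ± 0.37 at 48 h (adjusted p = 0.00179), and at 24 h its change was 0.68 ± 0.38 (adjusted p = 0.131).

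The other condensin genes had log2 changes of 0.63 to 1.07 at 48 h. NCAPD2 was at 34.0, 13.2, 22.5 and 15.5 CPM at 48 h against 11.3 to 17.4 CPM in the controls (0.63 ± 0.21, adjusted p = 0.0317), after falls of 0.64 ± 0.23 at 8 h (adjusted p = 0.0174) and 0.72 ± 0.23 at 20 h (adjusted p = 0.00877). The core subunit SMC2 was at 15.1, 12.3, 32.7 and 15.8 CPM at 24 h and 47.8, 8.13, 24.4 and 6.95 CPM at 48 h, against 7.36 to 14.5 CPM in the controls, and rose by 0.86 ± 0.32 at 24 h (adjusted p = 0.0231) and 1.07 ± 0.32 at 48 h (adjusted p = 0.016). Its partner SMC4 rose by 0.87 ± 0.27 at 48 h (adjusted p = 0.022). These 3 calls at 48 h were each lost without 48 h replicate 1, without replicate 3 and with the library sets in the fit, that of NCAPD2 also without control replicate 8. The 8 h call of NCAPD2 was lost without 8 h replicate 2 or 3, and its 20 h call when counts were scaled by column totals. LMNB1, a protein of the nuclear lamina, was called higher at every time but 4 and 12 h. Its libraries were at 48.9, 43.7, 20.0 and 10.6 CPM at 8 h, 17.4 to 34.2 CPM at 16 h, 14.4 to 34.2 CPM at 20 h, 28.3, 18.3, 39.0 and 23.2 CPM at 24 h, and 83.1, 11.9, 35.5 and 12.6 CPM at 48 h. Every library of 16, 20 and 24 h lay above the highest control, 14.3 CPM. LMNB1 rose by 1.65 ± 0.36 at 8 h (adjusted p = 0.000328), 1.30 ± 0.36 at 16 h (adjusted p = 0.00326), 1.26 ± 0.36 at 20 h (adjusted p = 0.00441), 1.46 ± 0.36 at 24 h (adjusted p = 0.0011) and 1.87 ± 0.36 at 48 h (adjusted p = 0.00049). The LMNB1, NCAPG and NCAPH calls at 48 h were lost without 48 h replicate 1.

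**Figure D3:**
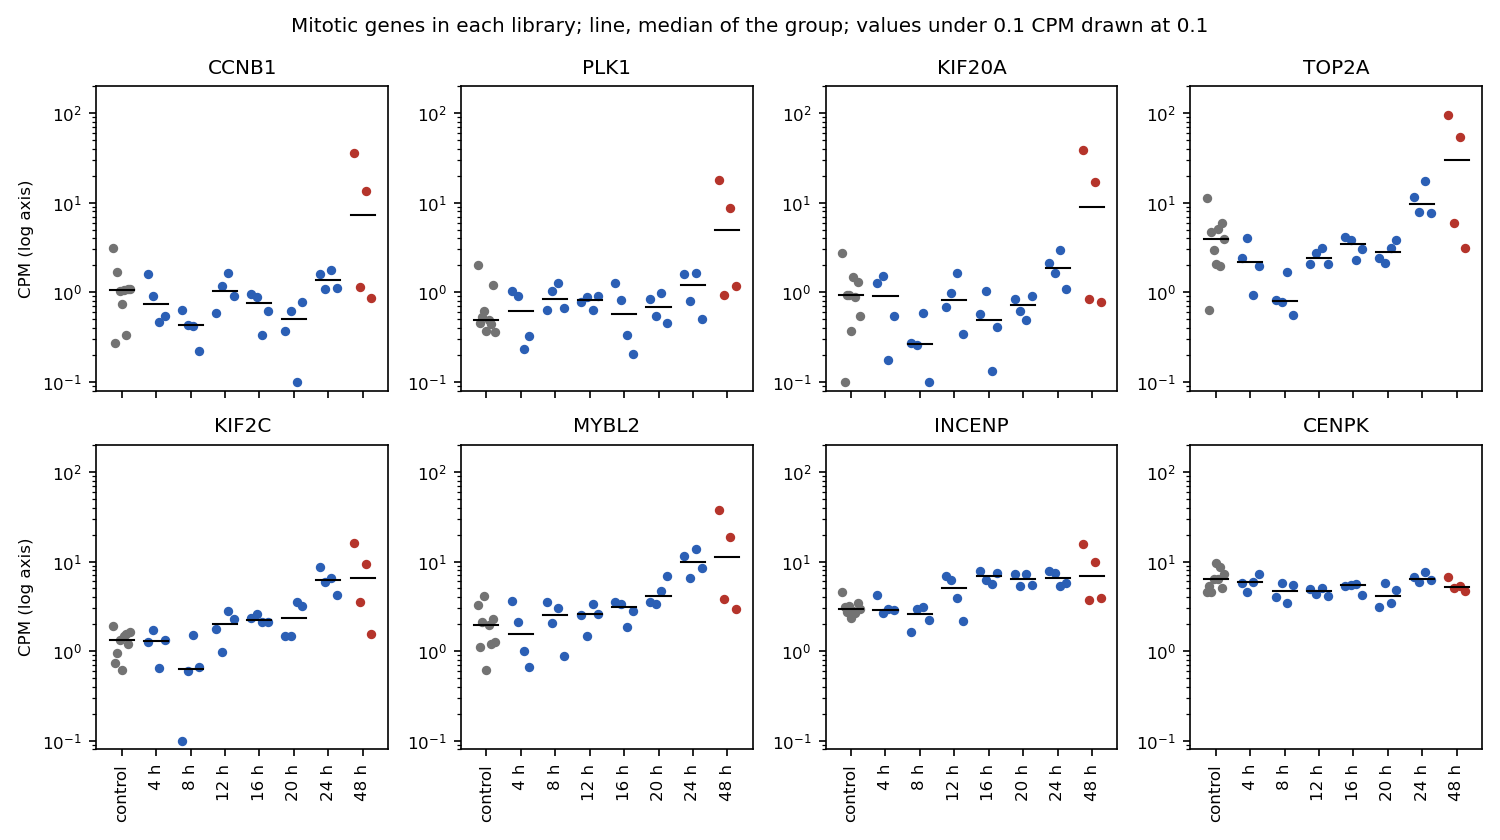
CPM on a log axis of 8 of the genes in every library, by group, with a line at the median of each group. CCNB1, PLK1 and KIF20A are called at 48 h and at no time before, KIF2C, MYBL2 and TOP2A are already higher at 24 h, INCENP is higher from 16 h, and CENPK does not leave the control range at 24 or 48 h. In all but CENPK, 48 h replicates 1 and 3 are above every control, and for KIF2C replicate 2 is too.

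All 3 genes of cytokinesis, the last step of division, rose at 24 h and again stood higher at 48 h. ANLN encodes anillin, which organises the contractile ring, and was at 7.02, 6.53, 16.8 and 8.93 CPM at 24 h and 37.1, 3.02, 18.8 and 2.61 CPM at 48 h, against 1.73 to 4.59 CPM (median 3.08) in the controls. Its rise was 1.64 ± 0.39 at 24 h (adjusted p = 0.000813) and 2.30 ± 0.39 at 48 h (adjusted p = 0.000117). RACGAP1, the partner of KIF23 in centralspindlin (chromosome 5, 15894314 to 15943619), was at 5.13, 6.68, 6.36 and 7.09 CPM at 20 h, 9.70, 9.64, 15.9 and 8.53 CPM at 24 h and 36.8, 3.96, 21.8 and 2.22 CPM at 48 h, against 0.913 to 5.37 CPM (median 3.46) in the controls. It rose by 1.01 ± 0.42 at 20 h (adjusted p = 0.0433), 1.80 ± 0.41 at 24 h (adjusted p = 0.000443) and 2.38 ± 0.40 at 48 h (adjusted p = 0.000122). The 20 h call was lost without any 1 of control replicates 2, 3, 4 and 9 and 20 h replicates 2, 3 and 4. ECT2, which activates the small GTPase that drives the ring, rose by 0.87 ± 0.31 at 16 h (adjusted p = 0.0179), 0.73 ± 0.31 at 24 h (adjusted p = 0.0449) and 1.28 ± 0.30 at 48 h (adjusted p = 0.00324). Its libraries were at 8.97, 10.0, 8.58 and 7.49 CPM at 16 h and 24.6, 4.27, 12.5 and 5.02 CPM at 48 h, and its controls at 2.56 to 8.15 CPM. The ECT2 call at 16 h was lost without 16 h replicate 2 and that at 48 h without 48 h replicate 1. Its call at 24 h was lost without any 1 of 13 libraries, namely control replicates 1, 2, 3, 4, 5 and 8, 12 h replicate 2, 16 h replicate 2, 20 h replicates 2 and 3, 24 h replicates 3 and 4, and 48 h replicate 3.

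UBE2C, the enzyme that supplies ubiquitin to the anaphase-promoting complex, was the only gene measured of its group. It was at 3.26, 3.04, 1.72 and 2.56 CPM at 24 h and 22.9, 1.46, 11.9 and 0.579 CPM at 48 h, against 0.181 to 3.46 CPM (median 0.781) in the controls. It rose by 3.10 ± 0.58 at 48 h (adjusted p = 0.000356) and was at 1.29 ± 0.60 at 24 h (adjusted p = 0.0671). Both transcription factors of the late cell cycle rose at 24 and 48 h. MYBL2 (chromosome 17, 46256245 to 46287929) was at 3.54, 3.34, 4.68 and 6.90 CPM at 20 h, 11.5, 6.53, 13.7 and 8.43 CPM at 24 h and 37.9, 3.85, 18.7 and 2.99 CPM at 48 h, against 0.615 to 4.10 CPM (median 1.95) in the controls. Its 24 h libraries all exceeded the controls, and it rose by 1.21 ± 0.48 at 20 h (adjusted p = 0.0344), 2.31 ± 0.46 at 24 h (adjusted p = 0.000105) and 2.99 ± 0.46 at 48 h (adjusted p = 3.64e-05). FOXM1 was at 1.23, 0.953, 1.86 and 1.19 CPM at 24 h and 7.11, 0.417, 3.70 and 0.193 CPM at 48 h, against 0 to 1.41 CPM (median 0.272) in the controls. It rose by 1.63 ± 0.68 at 24 h (adjusted p = 0.0441) and 2.80 ± 0.66 at 48 h (adjusted p = 0.00314). The FOXM1 call at 24 h was lost without any 1 of control replicates 2 and 4 to 9 and 24 h replicates 1, 3 and 4, and its call at 48 h without 48 h replicate 1. The MYBL2 call at 20 h was lost without any 1 of control replicates 2, 5, 7 and 9 and 20 h replicates 3 and 4.

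**Figure D4:**
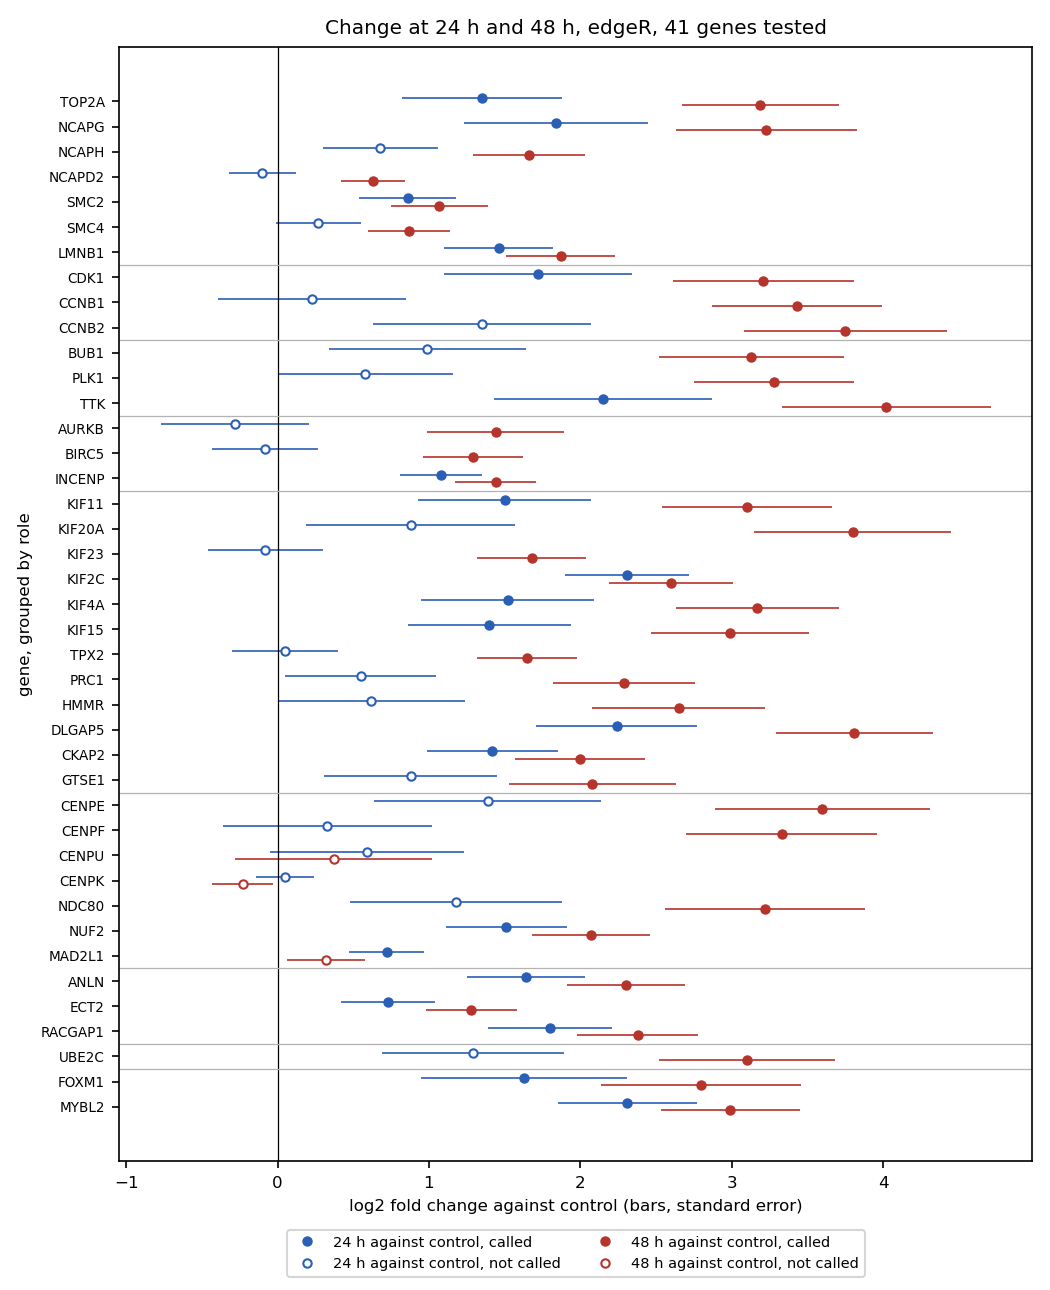
log2 fold change against control with its standard error, taken from the change and its F statistic, for the 41 genes tested, at 24 h (blue) and 48 h (red), grouped by role. Filled points passed the test. The 48 h points lie to the right of the 24 h points for all genes but CENPU, CENPK and MAD2L1, and many bars overlap.

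Between 24 and 48 h, 14 of the 41 genes rose and none fell, where 19.5% of all genes were called, 10.2% higher and 9.22% lower. The median log2 change was 1.49, against 0.04 for all genes. Apart from TOP2A (1.83 ± 0.64, adjusted p = 0.0412), these were 13 genes that had not been called at 24 h: CCNB1, CCNB2, BUB1, PLK1, AURKB, KIF20A, KIF23, CENPF, TPX2, PRC1, BIRC5, HMMR and NCAPD2. CCNB1 (3.20 ± 0.73, adjusted p = 0.00246), PLK1 (2.70 ± 0.66, adjusted p = 0.00422) and KIF23 (1.76 ± 0.45, adjusted p = 0.00559) had the smallest p-values. Another 18 genes, among them CDK1, KIF2C, ANLN, RACGAP1, NCAPG and MYBL2, were higher than in controls at both times without a call between the times. CDK1 differed between 24 and 48 h by 1.49 ± 0.71 (adjusted p = 0.138) and KIF2C by 0.28 ± 0.48 (adjusted p = 0.72). A gene without a call between the times is not shown to be equal at both. Of these 2 times against control, CENPE, NDC80, UBE2C, NCAPH, SMC4 and GTSE1 were called at 48 h only, and MAD2L1 at 24 h only. NCAPH had been called lower at 8 h, and MAD2L1 at 8 and 16 h. The row minimum described above bears on the 14 calls between 24 and 48 h too, since genes such as CCNB1 reach it only at 48 h.

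This comparison rested on few libraries. Fitted on the 8 libraries of the 2 times alone, it gave 0 calls (edgeR, 11 unadjusted p-values under 0.05), and with all libraries limma-voom gave 7 and DESeq2 14. Without 48 h replicate 1, 2 calls remained, CCNB1 and PLK1, and without 48 h replicate 3, 7 remained. It gave 33 calls without 48 h replicates 2 and 4 and 23 without either alone. With both left out, 551 of all genes were called, against 1832 with all libraries. Without 24 h replicate 1, 2 or 4 the comparison gave 7, 8 or 6 member calls, and with the library sets in the fit 1.

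In the 48 h libraries the genes kept one order. In 42 of 42, replicate 1 was highest, replicate 3 next, and replicates 2 and 4 below both. Replicates 1 and 3 both exceeded every control for 40 genes, all but CENPU and CENPK. Replicate 2 lay within the control range for 41 genes and replicate 4 for 39, and replicate 4 was below every control for CENPE, SMC2 and MAD2L1. The shares of all genes with this order or these positions were not counted. These counts are therefore not shown to be particular to the members. Over 9156 other genes, replicates 1 and 3 also lay farther from the controls (log2 distances 1.04 and 0.863) than replicates 2 and 4 (0.475 and 0.354). No member had all 4 libraries above the 9 controls, where 1.41% of all genes did, and none had all 4 below, where 0.818% of all genes did. At 24 h, 13 of the 42 did (CDK1, KIF11, KIF2C, NUF2, ANLN, RACGAP1, DLGAP5, CKAP2, NCAPG, INCENP, MAD2L1, MYBL2 and LMNB1), where 16.4% of all genes did, and none lay below, where 14.7% did. The ratio of replicate 1 to replicate 3 had a median of 1.85 over the members, where over all genes above 1 CPM in both it was 1.01, and it ran from 1.09 for AURKB to 3.58 for NDC80. Replicate 1 had the highest level of all 37 libraries for 40 of the 42 genes. The share of all genes with this position was not counted. Some members reach the row minimum described above only in 48 h replicate 1. FOXM1 had 116 counts there and 48 in replicate 3, and NDC80 had 248 and 55. If rows were selected by this minimum, a high count in replicate 1 was a condition for such genes to be in the table. The 40 of 42 and the median ratio of 1.85 may thus partly reflect selection.

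**Figure D5:**
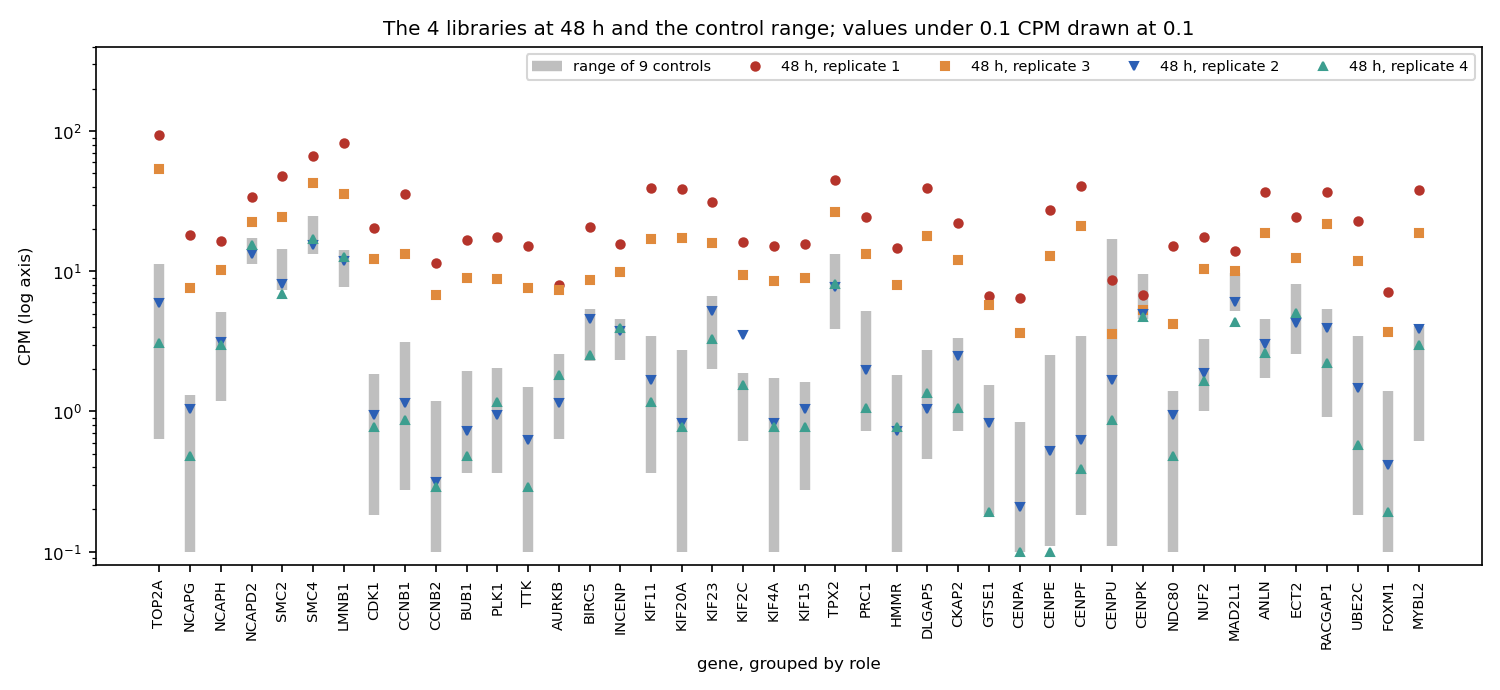
CPM on a log axis of the 42 genes (grouped by role) in the 4 libraries at 48 h, over a grey bar that spans the 9 controls. Replicate 1 (red) and replicate 3 (orange) lie above the grey bar for 40 genes, and replicate 2 (blue) and replicate 4 (green) lie within it for 41 and 39. The shares of all genes in these positions were not counted.

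Marker genes of macrophages, neutrophils and, for lymphocytes, NKG7 were highest in the same 2 libraries at 48 h, and those of endothelial cells, fibroblasts, erythroid cells and keratinocytes did not follow them. The 16 macrophage and monocyte markers measured of 18 listed summed to 2110, 272, 1280 and 205 CPM in 48 h replicates 1 to 4, against 81.5 to 226 CPM in the controls, and 15 of the 16 rose at 48 h. At 24 h they summed to 954, 488, 2150 and 502 CPM, so 24 h replicate 3 was level with 48 h replicate 1, while the mitotic genes summed to 338 CPM in the former and 1130 CPM in the latter. Neutrophil markers (6 of 11 measured, 1 higher at 48 h) summed to 43.4, 8.13, 24.9 and 2.80 CPM at 48 h and 37.4, 12.5, 55.4 and 13.7 CPM at 24 h, against 1.37 to 12.3 CPM in the controls, and S100A8 was at 0 in 48 h replicate 4. Muscle fibre markers (3 of 9 lower at 48 h) summed to 15900, 69300, 24700 and 70800 CPM at 48 h and 16800 to 31800 CPM at 24 h, so they were lowest in the 48 h libraries with the highest mitotic genes. Endothelial markers (9 of 11 measured, none called at 48 h) were nearly level over the 4 libraries, at 1320, 1280, 1280 and 1400 CPM, against 691 to 1690 CPM in the controls. Markers of satellite cells and myoblasts (9 of 14, 3 higher) summed to 4960, 6640, 6430 and 8120 CPM, against 5580 to 14700 CPM in the controls, a sum that is mostly DES, a gene also expressed in fibres. At 24 h their sums were 4160 to 6380 CPM, and 5 of the 9 were higher and 3 lower, with a median log2 change of 0.98 against 0.06 at 48 h. Those higher at 24 h were MYOD1 (1.13 ± 0.29, adjusted p = 0.00149), MYOG, MYF6, VCAM1 and NCAM1, of which the first 3 encode regulators of muscle formation, and those lower were CDH15, SPRY1 and DES. Fibroblast markers (11 of 11, 1 lower) summed to 4910, 3780, 8210 and 5760 CPM against 1950 to 7360 CPM, and pericyte markers (9 of 10, 1 lower) to 644, 911, 771 and 1120 CPM against 714 to 1430 CPM. Over the 4 libraries at 48 h, the satellite cell and pericyte sums ran in the reverse of the order of replicates 1 and 3 above 2 and 4, as the fibre markers did, and the fibroblast sum in neither order. Of the lymphocyte markers only NKG7 was measured (1 of 15), at 20.8, 4.90, 18.9 and 2.41 CPM against 1.36 to 2.91 CPM. The erythroid markers (2 of 7) summed to 163 to 201 CPM against 73.5 to 477 CPM, and those of keratinocytes (4 of 10) to 42.4 to 59.9 CPM against 32.7 to 64.8 CPM. No marker measured was at 0 in all 4 libraries. Of all genes tested, 26.8% were higher and 27.1% lower at 24 h, and 12.8% higher and 7.45% lower at 48 h. The part of these cells in the rise of the mitotic genes was not tested.

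The lower calls at 8 h were TOP2A, AURKB, KIF15, CENPF, HMMR, NCAPH, NCAPD2 and MAD2L1. CENPF was at 0.181, 0.260, 0.420 and 0.221 CPM and fell by 2.48 ± 0.94 (adjusted p = 0.0259), and HMMR was at 0.271, 0.0868, 0.420 and 0.110 CPM, against 0.0913 to 1.81 CPM (median 0.984) in the controls, and fell by 2.05 ± 0.84 (adjusted p = 0.0392). These values rest on 2, 3, 5 and 2 counts for CENPF and 3, 1, 5 and 1 for HMMR, near the floor of 3 counts. BUB1, at 4, 0, 3 and 1 counts at 8 h, was near it too. All 8 h libraries lay below every control for BUB1 and NCAPH, where 12.2% of all genes did, though BUB1 was not called (adjusted p = 0.0649). None lay above at 8 h, where 13.8% of all genes did. At 16 h all 4 libraries lay above the controls for KIF2C, NUF2, INCENP and LMNB1 (17.2% of all genes) and below for MAD2L1 (15.9%), and at 20 h above for INCENP and LMNB1 (14.2%) and below for AURKB and NCAPD2 (11.8%). At 4 h no member lay above (2.28% of all genes) or below (2.44%), and none did at 12 h (6.04% and 4.46%). Markers of several other cell types also differed at 8 h, when 25.8% of all genes were higher and 28.2% lower. Of the fibroblast markers 8 of 11 were lower and 1 higher (median log2 change -1.28), with sums of 804 to 2790 CPM against 1950 to 7360 CPM in the controls, and of the pericyte markers 6 of 9 were lower (median -1.43), with sums of 365 to 528 CPM against 714 to 1430 CPM. Of the muscle fibre markers 5 of 9 were lower (median -1.97), with sums of 55800 to 65900 CPM against 61900 to 113000 CPM in the controls. Of the endothelial markers 3 of 9 were lower (median -0.34), near the share of all genes. All 6 neutrophil markers were higher (median 4.46), with sums of 298, 202, 85.3 and 18.1 CPM against 1.37 to 12.3 CPM, as were 9 of 16 macrophage markers (median 1.88). The part of these cells in the lower mitotic genes at 8 h was not tested. The CENPF call was lost without any 1 of 8 h replicates 1, 2 and 4, and the HMMR call without any 1 of these and of control replicates 1, 6, 8 and 9. The 9 calls at 8 h became 14 with DESeq2, 20 without 48 h replicates 2 and 4, 15 without 48 h replicate 1, and 5 without 8 h replicate 1 or 2. They became 2 (TOP2A and NCAPH) with the library sets in the fit, where 3 of the 4 libraries at 8 h share a set with 2 controls. At 16 h the library sets left 1 of 5 calls, ECT2, all 16 h libraries being in that same set. The 5 calls became 11 when only 16 h and control were fitted and 11 without 48 h replicates 2 and 4. At 20 h, 4 of 7 calls remained without 20 h replicate 3.

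Other genes of the same processes were taken from lists that hold none of the genes above. Of 66 further mitotic genes 42 were tested, and 25 rose and 4 fell at 24 h (median log2 change 0.61), and 22 rose and 1 fell at 48 h (median 0.87). Of all genes, 26.8% were higher and 27.1% lower at 24 h, and 12.8% higher and 7.45% lower at 48 h. KNTC1, a checkpoint protein of the kinetochore, was at 21.2, 2.92, 9.49 and 1.64 CPM at 48 h against 0.733 to 1.63 CPM in the controls and rose by 2.56 ± 0.42 at 24 h (adjusted p = 8.84e-06) and 3.00 ± 0.42 at 48 h (adjusted p = 9.98e-06). SPC24, of the NDC80 complex, was at 13.5, 1.46, 9.03 and 0.966 CPM at 48 h and rose by 3.03 ± 0.46 (adjusted p = 3.09e-05), the kinase MELK rose by 2.61 ± 0.49 (adjusted p = 0.000355), and the condensin II subunit NCAPG2 by 0.95 ± 0.20 (adjusted p = 0.00116). The count at 48 h was 6 higher and none lower without 48 h replicate 1, and 28 higher and 1 lower without replicates 2 and 4. The latter fit called 3448 of all genes, against 1906 with all libraries. At 24 h the count was 12 higher and 3 lower without 24 h replicate 3.

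DNA replication genes act a step before mitosis. Of 38 tested from a list of 46, 13 rose and 2 fell at 16 h, 24 rose and none fell at 20 h (median 0.74), 33 rose and none fell at 24 h (median 1.57) and 29 rose and none fell at 48 h (median 1.11). Of all genes, 25.3% were higher and 27.8% lower at 16 h, and 25.4% and 26.2% at 20 h. The shares were 26.8% and 27.1% at 24 h, and 12.8% and 7.45% at 48 h. Between 24 and 48 h, 2 replication genes fell and none rose, with a median of -0.27, where 14 of the 41 mitotic genes rose. Of all genes, 10.2% were higher and 9.22% lower between these times. Without 48 h replicates 2 and 4 the median between these times was 0.28, with 1 higher and none lower, and without 48 h replicate 1 it was -0.78, with 12 lower. MCM4, a subunit of the replicative helicase, rose by 2.51 ± 0.37 at 20 h (adjusted p = 3.17e-06), 3.47 ± 0.37 at 24 h (adjusted p = 1.51e-08) and 2.96 ± 0.37 at 48 h (adjusted p = 3.1e-06), at 56.5, 9.17, 27.6 and 6.08 CPM in the 48 h libraries against 1.54 to 4.71 CPM in the controls. All 4 of these libraries were above the controls, which held for none of the 42 mitotic genes. It held for KNTC1 of the further mitotic genes, by a margin within counting error. MCM4 and KNTC1 are among the genes named for the smallest p of their lists. Over all genes tested 1.41% had this pattern, and neither the 38 replication genes nor the further mitotic genes were counted for it. The helicase subunits MCM3 (2.38 ± 0.37) and MCM2 (3.00 ± 0.43) and the chromatin assembly factor CHAF1B (2.89 ± 0.48) also rose at 20 h. Summed over the 38 genes, the libraries at 48 h were at 945, 355, 570 and 314 CPM, those at 24 h at 552 to 778 CPM, and the controls at 273 to 331 CPM.

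For the remaining lists, the shares of all genes to read the counts against are 26.8% higher and 27.1% lower at 24 h, and 12.8% higher and 7.45% lower at 48 h. Of 23 genes of the anaphase-promoting complex and cohesin, which are used outside mitosis too, 6 rose and 4 fell at 24 h and 1 rose and none fell at 48 h, with a median of 0.04. Its subunits ANAPC15 and ANAPC16 fell by 0.74 ± 0.17 (adjusted p = 0.000678) and 0.90 ± 0.24 (adjusted p = 0.0024) at 24 h, ANAPC13 fell at 20 h by 0.65 ± 0.22 (adjusted p = 0.013), and UBE2S was at 0.24 ± 0.26 at 48 h (adjusted p = 0.554). Among 13 genes of the DREAM complex and the E2F factors, which switch cell cycle genes off and on, 4 rose and 5 fell at 24 h and 2 rose and 2 fell at 48 h. E2F1 rose by 2.93 ± 0.56 at 24 h (adjusted p = 7.06e-05) and 2.78 ± 0.57 at 48 h (adjusted p = 0.000862), and E2F4 by 0.68 ± 0.12 at 24 h (adjusted p = 2.69e-05). RBL2, the pocket protein p130, fell by 0.89 ± 0.18 at 24 h (adjusted p = 0.000139) and E2F6 by 0.82 ± 0.23 (adjusted p = 0.00358). Among 22 G1 cyclins, kinases and their inhibitors, 6 rose and 4 fell at 24 h and 4 rose and 1 fell at 48 h. GADD45A, a stress gene that slows the cycle, rose by 4.16 ± 0.46 at 8 h (adjusted p = 2.34e-08) and 2.12 ± 0.45 at 24 h (adjusted p = 0.000226). BTG1, another brake on proliferation, rose by 1.47 ± 0.21 at 8 h (adjusted p = 1.17e-06), and CCNG2 fell by 1.00 ± 0.18 (adjusted p = 2.93e-05).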

How the data were processed

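The values are raw counts per gene as deposited by the authors in 1 table of 37 columns, each matched to a sample by its title. Per the submitters' processing notes, FastQC, MultiQC, Trimmomatic, HISAT2 2.2.1, HTSeq and Sscrofa 11.1 were used; annotation release and strand setting are not given in the sources used here. Every row reaches at least 101 counts in some library, so the table holds part of each library and column totals are not the sequencing depth. No 2 libraries of a group were as alike as sampling noise (lowest chi-square per degree of freedom 16.1 over 78 pairs).

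Counts were scaled by TMM in edgeR 4.0.16 (R 4.3.3, limma 3.58.1), filtered with filterByExpr and fitted with a robust quasi-likelihood model to all 37 libraries, with group as the only factor. CPM uses the TMM-scaled totals, and p-values were adjusted over 9411 genes. Each SE is the size of the log2 change divided by the square root of its quasi-likelihood F statistic. It was not estimated separately. Alternatives were other size factors, no filter, DESeq2 1.42.0, limma-voom, a replicate block, only the 2 groups compared and leaving out each library. Added after the data were seen were the 5 library sets, scaling by column totals and the fit without 48 h replicates 2 and 4. Scaling by totals shifted the median change of all genes by -0.15 (4 h), 0.35 (16 h), 0.33 (20 h), 0.48 (24 h), 0.36 (48 h) and -0.11 (24 to 48 h), and all directions given are those on TMM-scaled counts.

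The members and lists were chosen with earlier results of these data known. Values in full were to go first to up to 3 genes of each role with the smallest p over the 7 times together, then to genes called lower at any time or called before 48 h and to genes whose 48 h libraries overlap the controls, and to up to 4 genes of each other list with the smallest p. All 42 genes met the overlap condition, so those outside the other conditions are given more briefly. Tested on simulated data with 9366 genes for 48 h against control, the fit recovered 84.6% of genes changed by a log2 of 1, 95% at 2 and 97.5% at 3. The changed genes were drawn at random from all genes, with no split among the 48 h libraries. These rates therefore do not give the recovery for the members, many of which had low counts and split at 48 h. Coordinates are RefSeq gene spans of Sscrofa 11.1, matched by symbol for 42 of 42 genes; no sequences were used. The result of 1 gene of the G1 list is not reported here.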

Additional observations from a re-analysis of the deposited data

Results flagged for a closer look

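Dixon's criterion marks about 1 in 20 groups by chance where values are independent and normal. Low counts of genes that move together do not meet this, so the share found here has no known chance rate. In 27 of 336 gene and group combinations (8.04%), 1 library lay far from the others of its group by this criterion. Of these, 9 were high values in control replicate 1, which was the highest control for 22 of the 42 genes: TOP2A at 11.2 CPM, CCNB1 at 3.14, CCNB2 at 1.18, PLK1 at 2.04, TTK at 1.49, PRC1 at 5.19, UBE2C at 3.46, DLGAP5 at 2.75 and FOXM1 at 1.41 CPM. Control replicate 2 was far above the other controls for CENPU, at 17.1 CPM. At 24 h, replicate 3 was far above the rest for KIF4A (3.86 CPM), RACGAP1 (15.9) and DLGAP5 (7.36), and replicate 2 stood apart for CDK1 (2.53, low) and BIRC5 (4.33, high). At 20 h, replicate 1 was far below for KIF23 (1.58), ECT2 (3.73) and SMC4 (7.55), and replicate 4 far above for TTK (0.838). The others were CDK1 in 16 h replicate 3 (0.528), TPX2 in 12 h replicate 3 (9.71), UBE2C in 12 h replicate 2 (0.779), CENPU in 8 h replicate 4 (11.3), CENPA in 8 h replicate 2 (0.260), CENPE in 4 h replicate 1 (2.40), TTK in 4 h replicate 2 (0.510) and CKAP2 in 4 h replicate 3 (0.994). No single library was far from the other 3 at 48 h for any gene. With replicates 1 and 3 above replicates 2 and 4 there, the criterion has little power to mark a single library.

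The change against control differed between 48 h and 24 h for 14 of the 41 genes, all larger at 48 h, by the edgeR test of 48 h against 24 h.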

How the results depend on the processing

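Every member's log2 change that was called kept its sign under every alternative. The count at 48 h stayed within 1.5 times of 38 under all alternatives but leaving out 48 h replicate 1. With DESeq2 the calls were 1 at 4 h, 14 at 8 h and 3 at 12 h, and with limma-voom 7 between 24 and 48 h. With only the compared groups fitted they were 4 at 12 h, 11 at 16 h and 0 between 24 and 48 h. Of the alternatives chosen after seeing the data, the 5 library sets gave 2 at 8 h, 1 at 16 h, 13 at 24 h and 1 between 24 and 48 h. Scaling by column totals gave 8 between 24 and 48 h, and moved the split of higher to lower calls to 5 and 0 at 16 h and 5 and 1 at 20 h. Leaving out 48 h replicates 2 and 4 gave 1 call at 4 h and 20 at 8 h, 6 for 12 h, 11 each for 16 and 20 h, and 33 between 24 and 48 h. Leaving out each library in turn gave 0 to 1 calls at 4 h, 5 to 15 at 8 h and 0 to 4 at 12 h. It gave 4 to 6 for 16 h, 4 to 8 for 20 h, 12 to 23 for 24 h and 19 to 39 for 48 h, with 2 to 23 between 24 and 48 h and 38 to 42 over the 7 times together. The cause of these shifts was not tested.

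Same-numbered libraries of different times did not deviate together (mean correlation 0.017 over 84 pairs, from -0.604 to 0.601, and -0.0041 over 252 other pairs), and 10 of 28 libraries correlated best with their own number, so the numbers were not taken as a pairing. With the replicate block the calls were 1 at 4 h, 5 at 8 h and 2 at 12 h, then 12 for 24 h, 31 for 48 h and 7 between 24 and 48 h. The median was at most 3 counts for 12 of 42 genes at 8 h and for 4 in the controls, and detection at these counts was not tested at 8 h.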
